A study of Rattus norvegicus with 12 samples.

Results

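The collagen genes of the rat esophagus were followed through N-nitrosomethylbenzylamine (NMBA) carcinogenesis. They were taken as every gene on the expression array whose platform symbol is Col, a number, the letter a and a number, apart from Col17a1, which left 40 of 14217 named genes, measured by 57 probe sets. They fell into 11 fibrillar collagens, 8 collagens of the basement membrane zone and 21 others, and each gene was represented by its brightest probe set on average. RNA came from 12 samples of rat esophageal tissue, 1 array each, in 4 groups of 3. NMBA is a carcinogenic nitrosamine to which the squamous epithelium of the esophagus is sensitive. Rats received 0.2 ml subcutaneous injections, 3 per week for 5 weeks, of NMBA at 0.3 mg/kg body weight or, in the other treatment arm, of its solvent, dimethyl sulfoxide in water. NMBA tissue was taken at an early (week 6), middle (week 15) and late (week 29) stage of tumor development, counted after treatment, and the fourth group is labelled normal control. Rats were housed 3 per cage. The labels used here name no strain, sex or age and no week for the controls, so the age gap between controls and treated rats is unknown. They do not tie arrays to single animals or cages either, and the p-values may therefore reflect technical spread.

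Collagens are trimers of chains wound into a triple helix. Fibrillar collagens such as types I, III and V are secreted mainly by fibroblasts and assemble into the tensile fibers of connective tissue, type IV forms the sheet-like network of basement membranes, and type VI, the fibril-associated types and the short-chain types connect or organize these structures. In the esophagus the fibrillar collagens lie in the lamina propria, the submucosa and the connective tissue around muscle, beneath the squamous epithelium, while type VII, which keratinocytes make, anchors the epithelial basement membrane to the stroma.

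The tissue is labelled esophageal epithelia and was stripped of submucosa and muscle, but stromal and muscle genes were bright on every array. A marker score was taken as the mean log2 signal of a list of genes in 1 array. The skeletal muscle score (25 genes) ran from 11.58 to 12.04 in controls, and from 12.24 to 12.44, 10.00 to 11.47 and 12.05 to 12.20 at weeks 6, 15 and 29. The fibroblast score, from 20 genes with no collagen among them, was 9.05 to 9.52, 9.19 to 9.40, 8.38 to 8.85 and 9.08 to 9.44 in the same order. The squamous epithelium score (20 genes) was 10.95 to 11.24, 10.10 to 10.42, 11.21 to 11.66 and 9.56 to 10.37. Week 15 thus had the lowest muscle and fibroblast scores, and weeks 6 and 29 the lowest squamous scores. GAPDH control probe sets at the 3' end minus those at the 5' end, a log2 difference that is larger in degraded RNA, gave 0.40 ± 0.16 (SD, n = 3) in controls and 0.40 ± 0.19 at week 15, but 0.11 ± 0.04 and 0.17 ± 0.04 at weeks 6 and 29. In bulk tissue, fewer cells of a type and less RNA per cell cannot be told apart. Detection calls were not used here, and 15 of the 40 members had a mean log2 signal at or below 6.44, the median of all probe sets, where the precision is limited by the number of arrays and the dim signal.

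**Figure D1:**
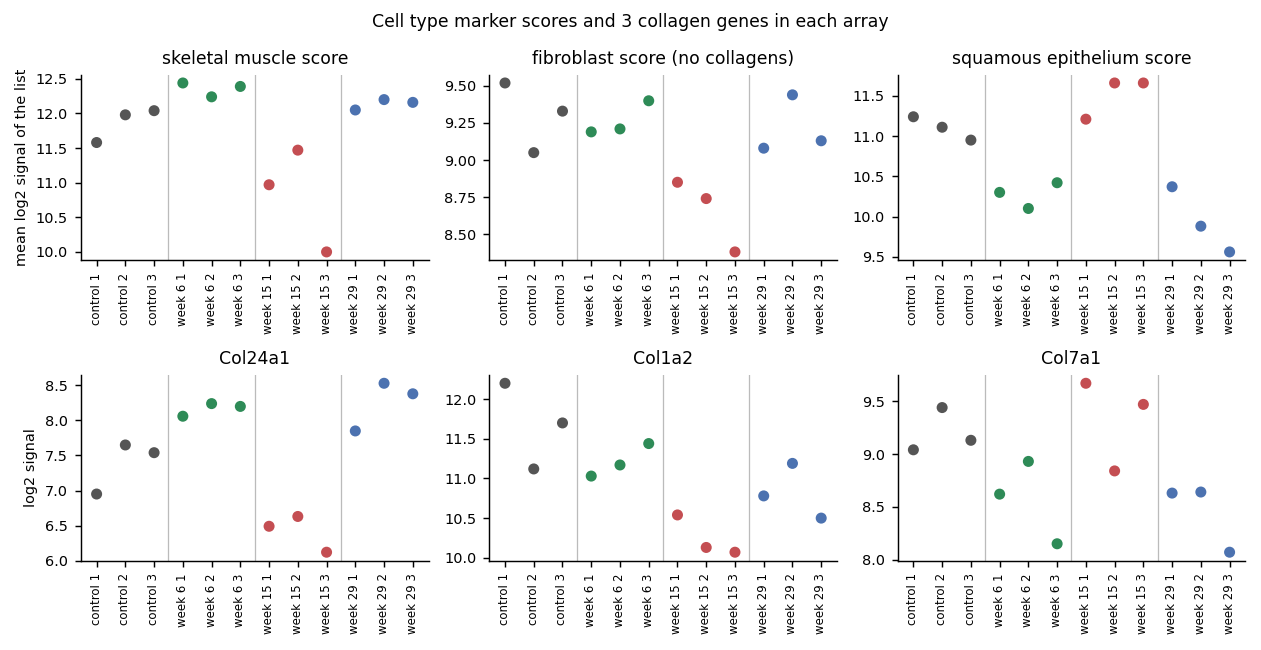
Mean log2 signal of 3 marker lists (upper row) and log2 signal of Col24a1, Col1a2 and Col7a1 (lower row) in each of the 12 arrays, coloured by group. The muscle score at week 15 (10.00 to 11.47) lies below every control, and the squamous scores of weeks 6 and 29 lie below those of the other groups.

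The promoters of 4 members are shown because these genes stand for 3 patterns described below. Col1a2 fell at week 15 with other type I, III and V chains, Col24a1 is a fibrillar collagen that moved otherwise, and Col4a1 and Col4a2 are transcribed away from each other from a shared promoter. RefSeq promoter windows of 300 bases, from 250 before to 50 after the annotated start on build GRCr8, were found for 31 of the 40 genes. Capitals mark matches, on either strand, to any of 4 motifs. The TATA box was searched as TATAAA. The CCAAT box was searched by the letters of its name. The GC box was searched as GGGCGG. The AP-1 site was searched as TGANTCA, and no matches overlapped in these windows. The windows are chr4:33518307-33518606 on the plus strand for Col1a2, chr2:236872333-236872632 on the plus strand for Col24a1, chr16:84885347-84885646 on the plus strand for Col4a1 and chr16:84885471-84885770 on the minus strand for Col4a2, each read 5′ to 3′ along its gene.
Col1a2: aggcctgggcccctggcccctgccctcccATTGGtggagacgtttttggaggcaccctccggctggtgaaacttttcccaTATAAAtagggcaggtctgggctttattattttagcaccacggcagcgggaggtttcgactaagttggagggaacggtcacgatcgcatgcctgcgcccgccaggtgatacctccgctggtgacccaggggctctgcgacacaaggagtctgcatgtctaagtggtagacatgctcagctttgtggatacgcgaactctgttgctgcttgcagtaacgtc
Col24a1: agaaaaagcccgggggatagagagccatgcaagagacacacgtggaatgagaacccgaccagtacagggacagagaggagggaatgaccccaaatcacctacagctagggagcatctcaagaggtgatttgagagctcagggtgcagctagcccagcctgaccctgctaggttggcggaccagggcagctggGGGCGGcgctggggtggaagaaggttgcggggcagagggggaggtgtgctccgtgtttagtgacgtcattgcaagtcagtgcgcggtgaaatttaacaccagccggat
Col4a1: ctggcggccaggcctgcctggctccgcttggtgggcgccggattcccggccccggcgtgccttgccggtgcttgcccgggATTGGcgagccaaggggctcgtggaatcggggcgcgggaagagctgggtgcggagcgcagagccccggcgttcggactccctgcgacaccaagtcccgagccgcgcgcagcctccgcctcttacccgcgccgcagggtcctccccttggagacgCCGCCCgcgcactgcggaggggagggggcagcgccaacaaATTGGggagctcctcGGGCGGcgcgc
Col4a2: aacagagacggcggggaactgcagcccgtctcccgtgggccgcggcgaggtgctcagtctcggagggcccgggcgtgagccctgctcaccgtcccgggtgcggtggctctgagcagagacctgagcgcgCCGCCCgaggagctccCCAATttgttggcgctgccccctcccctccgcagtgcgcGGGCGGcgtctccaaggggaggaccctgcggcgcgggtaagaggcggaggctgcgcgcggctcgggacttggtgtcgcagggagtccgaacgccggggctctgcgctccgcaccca

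The Col1a2 window held 1 TATA box at -170 to -165 and 1 reversed CCAAT box at -221 to -217 from the annotated start, and no GC box. The Col24a1 window held 1 GC box at -58 to -53. The Col4a1 and Col4a2 starts lay 76 bases apart on opposite strands, and 176 bases of the windows were the same DNA, identical once reversed. That shared stretch held 2 GC boxes and 1 CCAAT box, which in the Col4a1 window stand at -16 to -11, 40 to 45 and 25 to 29. A GC box was found in 18 of 31 collagen windows (58.1%) and in 34.9% of 27457 windows of all genes, a CCAAT box in 8 (25.8%) against 37.8%, a TATA box in 3 (9.68%) against 14.3% and an AP-1 site in 1 (3.23%) against 7.31%. GC boxes were found in 6 of 8 fibrillar, 6 of 8 basement membrane and 6 of 15 other windows. These matches describe letters in a window and were not tested as binding sites.

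The comparison of week 15 with control asks what differed at the middle stage. Here 11 of 40 collagen genes fell and 0 rose, where 8.38% of all genes fell and 1.54% rose (9.92% in all). The 11 were both type I chains, type III, 2 chains of type V, Col24a1, the 3 main chains of type VI, and the types XIV and XV. In fibrillar collagens 6 of 11 fell, with a median log2 fold change of -0.96, in the basement membrane class 1 of 8 with a median of -0.35, and in the other collagens 4 of 21 with a median of -0.12. The median over all genes was 0.03. All 3 week 15 arrays lay below all 3 controls for 15 of the 40 genes, and above them for 2, against 17.4% and 11.4% of all genes.

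Col1a2, the second chain of type I collagen, was 12.20, 11.12 and 11.70 on the log2 scale in controls and 10.54, 10.13 and 10.07 at week 15. Every week 15 sample lay below every control, and control 1 was the highest of all arrays. The log2 fold change was -1.42 ± 0.25 (SE, n = 3 per group), or 2.68-fold lower, with limma's adjusted p = 0.00926. Col1a1, which supplies the other 2 chains of the type I trimer, was 11.37, 10.33 and 10.77 in controls and 10.02, 9.82 and 9.35 at week 15 (log2 fold change -1.10 ± 0.27, adjusted p = 0.0283). The groups were separate, but the lowest control lay only slightly above the highest week 15 sample, and Col1a1 was the least certain of the type I, III and V chains that fell.

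Col3a1, the chain of type III collagen, which forms thin fibers with type I, was 12.53, 11.77 and 12.16 in controls against 11.05, 10.75 and 10.70 (-1.32 ± 0.20, adjusted p = 0.00521). Type V collagen sits inside type I fibers and sets their diameter. Its chain Col5a2 was 10.36, 9.95 and 10.30 in controls and 9.13, 8.93 and 9.06 at week 15 (-1.16 ± 0.17, adjusted p = 0.00422). Col5a1 was 9.93, 9.19 and 9.66 against 8.62, 8.56 and 8.30 (-1.10 ± 0.19, adjusted p = 0.00873). For types III and V the lowest control lay well above the highest week 15 array. The third type V chain, Col5a3, had a log2 fold change of -0.36 and was not called (adjusted p = 0.268). The cartilage fibrillar genes Col2a1, Col11a1 and Col11a2 had values of 0.14, 0.08 and 0.14, and Col27a1 of -0.19; none was called.

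**Figure D2:**
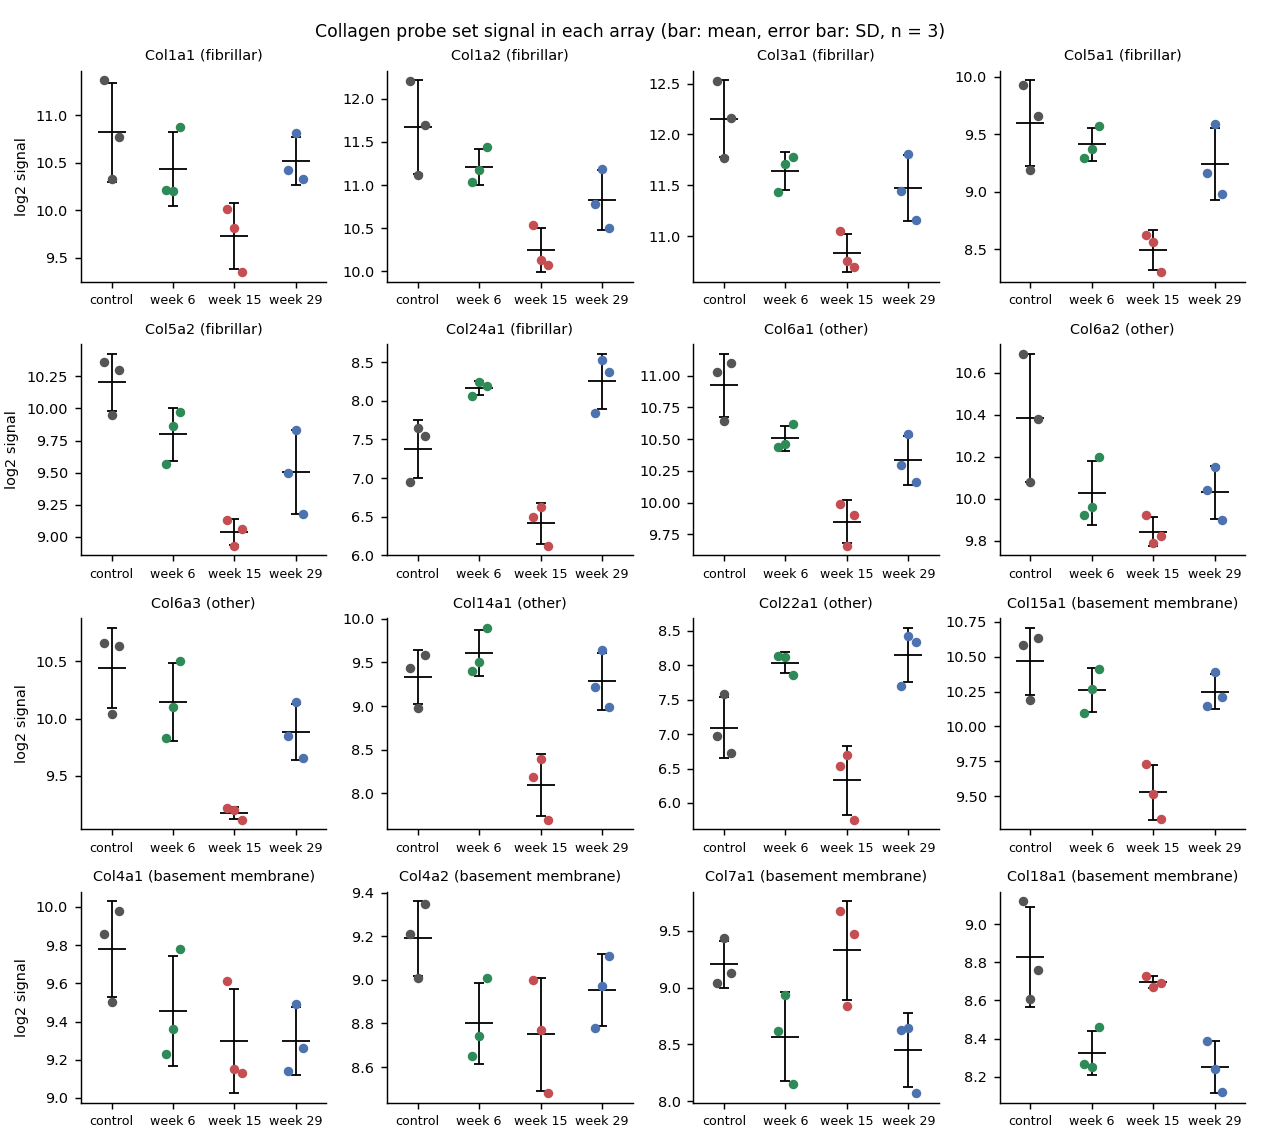
Log2 signal of 16 collagen genes in each array (dots), with the mean (bar) and SD (error bar, n = 3) of each group; each vertical axis has its own range and does not start at 0. For Col1a2 the week 15 arrays (10.07 to 10.54) lie below all others except the lowest week 29 array at 10.50, and Col24a1 is highest at weeks 6 and 29.

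Type VI collagen forms beaded microfilaments around cells from 3 chains in 1 molecule. Col6a1 was 11.03, 10.64 and 11.10 in controls and 9.99, 9.66 and 9.90 at week 15, the lowest adjusted p of the 40 genes (-1.07 ± 0.14, adjusted p = 0.00337). Col6a3 was 10.66, 10.04 and 10.63 against 9.22, 9.20 and 9.12 (-1.27 ± 0.19, adjusted p = 0.00548). Col6a2 was 10.69, 10.08 and 10.38 against 9.92, 9.79 and 9.82 (-0.54 ± 0.14, adjusted p = 0.0361). All 3 chains were separate from controls, with a smaller shift for Col6a2. Within an array the signal of Col6a3 minus that of Col6a2 was -0.02, -0.04 and 0.24 in controls and -0.70, -0.59 and -0.70 at week 15, and that of Col6a1 minus Col6a2 was 0.34, 0.56 and 0.71 against 0.07, -0.14 and 0.08. The measured shifts of the brightest probe sets were thus unequal, which was noticed in the data and was not tested. The much dimmer second probe sets of Col6a3 (-0.31) and Col6a2 (-0.18) were not called, so a difference between probe sets cannot be told apart from one between chains. The later-described type VI chains Col6a5 (-0.84) and Col6a6 (-0.59) were not called.

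Col14a1, a collagen that binds the surface of fibrils, was 9.44, 8.98 and 9.58 in controls and 8.19, 8.39 and 7.70 at week 15 (-1.24 ± 0.22, adjusted p = 0.0100). Col12a1, its close relative in structure, was 7.69, 7.08 and 7.40 against 7.88, 7.30 and 7.01, a log2 fold change of 0.01. The control and week 15 ranges of Col12a1 overlapped throughout. Col16a1, another fibril-associated collagen, stood at -0.12 and Col8a1, a network collagen of vessels, at 0.08, and neither was called.

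In the basement membrane zone Col15a1, a proteoglycan collagen of the zone around muscle fibers and capillaries, was the 1 gene that fell at week 15. Its signal was 10.58, 10.19 and 10.63 in controls and 9.73, 9.52 and 9.34 at week 15 (-0.94 ± 0.14, adjusted p = 0.00527). Col4a1 and Col4a2, the 2 chains of the common type IV network, were 9.86, 9.50 and 9.98 and 9.21, 9.01 and 9.35 in controls, and 9.61, 9.15 and 9.13 and 9.00, 8.77 and 8.48 at week 15. Their log2 fold changes were -0.48 ± 0.18 and -0.44 ± 0.15 and neither was called (adjusted p = 0.119 and 0.0929). Neither chain of the head-to-head pair printed above passed in any of the 6 comparisons. Col4a5, a chain of the less common type IV networks, was 8.68, 8.49 and 9.60 in controls and 8.09, 7.61 and 8.20 at week 15, below every control but not called (-0.96 ± 0.28, adjusted p = 0.0538). Its neighbor Col4a6 was at -0.26 and Col4a4 at 0.05.

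Beside these falls, 9 of 20 fibroblast markers other than collagens fell and 0 rose at week 15 (list median -0.49), led by Lum (-1.20), Mfap4 (-1.42) and Dcn (-0.89). Of other markers, 5 of 25 skeletal muscle, 3 of 11 smooth muscle and 4 of 14 endothelial markers fell, where 8.38% of all genes fell. With the muscle score as a covariate Col1a2 was at -1.49, Col3a1 at -1.38 and Col6a1 at -1.20, as low as without it, while Col1a1 was at -0.90, Col14a1 at -0.80 and Col24a1 at -0.46, closer to 0. The fibrillar median under it was -0.46, and 0 of 40 genes were called (adjusted p = 0.200, 0.171 and 0.151 for the first 3). The fibroblast score as a covariate was an alternative added after the data were seen. With it Col1a2, Col3a1 and Col6a1 were at -0.43, -0.58 and -0.71, Col1a1 was at 0.05 and 0 of 40 were called. Both scores were lower in every week 15 array than in every control. A score and the group therefore cannot be told apart well, and the lost calls do not show whether cell content had a part. Fitting only these 6 arrays called 4 genes, and the count was 4 with the squamous score as an added covariate and 8 to 12 when each array was left out in turn.

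**Figure D3:**
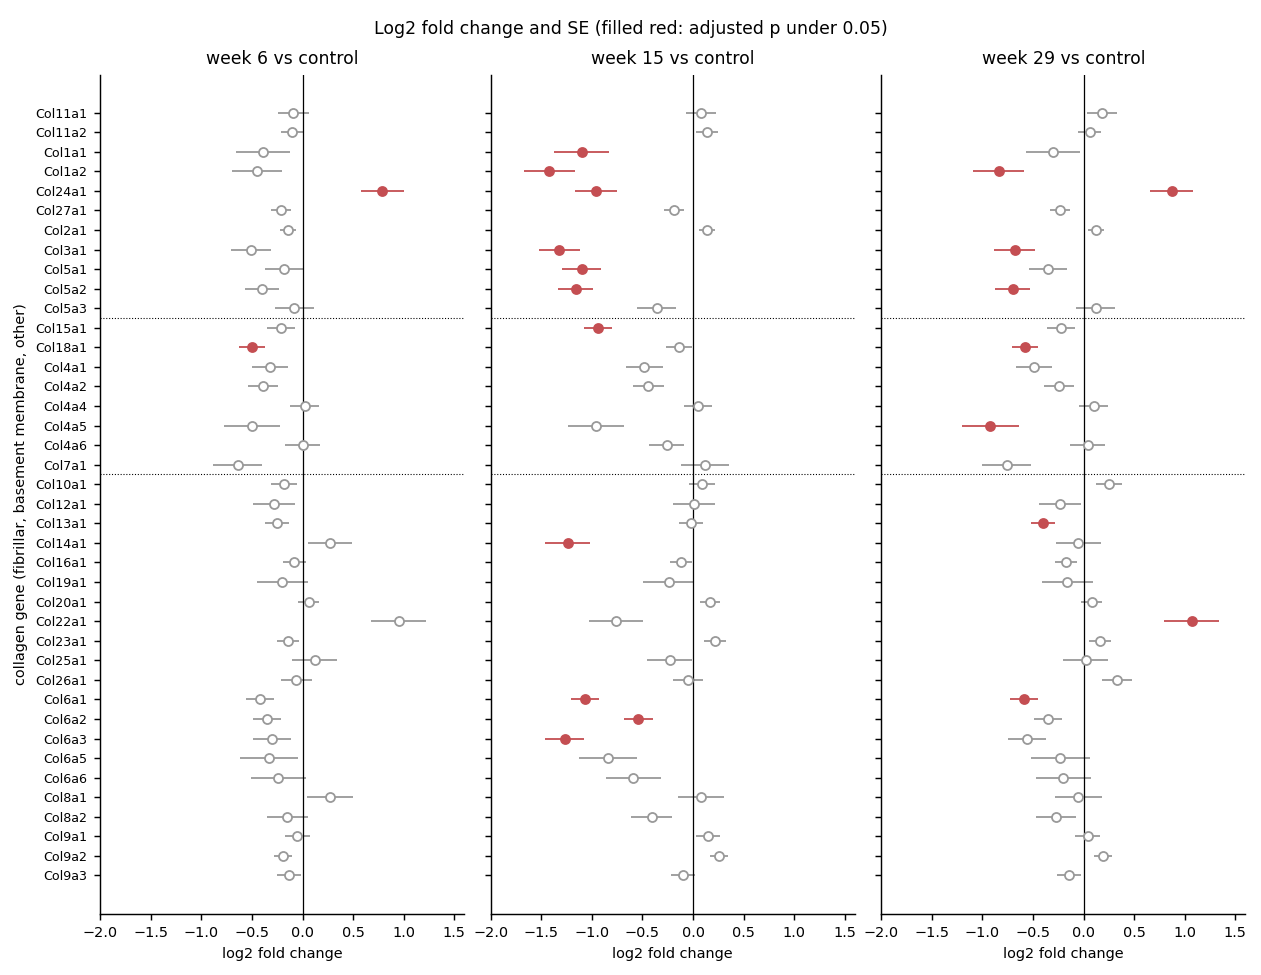
Log2 fold change with its SE of each of the 40 collagen genes at weeks 6, 15 and 29 against control, from limma on all 12 arrays; filled red points have an adjusted p under 0.05 and dotted lines part the fibrillar, basement membrane and other classes. The called falls lie mainly at week 15 (11 genes), and Col24a1 is called in all 3 panels.

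At week 6, the early stage, 1 collagen gene fell and 1 rose (3.76% and 5.07% of all genes, 8.83% in either direction). All 3 week 6 arrays lay above all controls for 2 genes and below them for 6, against 20.4% and 22.3% of all genes. Col18a1, a basement membrane proteoglycan collagen whose end fragment is endostatin, was 9.12, 8.61 and 8.76 in controls and 8.27, 8.25 and 8.46 at week 6, so all 3 were below every control (-0.50 ± 0.13, adjusted p = 0.0377). Col24a1, a minor fibrillar collagen, was 6.95, 7.65 and 7.54 in controls and 8.06, 8.24 and 8.20 at week 6, all above every control (0.79 ± 0.21, adjusted p = 0.0411). Class medians were -0.18 for fibrillar, -0.35 for basement membrane and -0.15 for other collagens, and -0.03 for all genes. Of the 38 genes not called, 31 had negative values.

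The type I, III, V and VI chains did not pass at week 6. Col1a1 was 10.22, 10.20 and 10.88 (-0.39 ± 0.27, adjusted p = 0.38), Col1a2 11.03, 11.17 and 11.44 (-0.45 ± 0.25) and Col3a1 11.43, 11.71 and 11.78 (-0.51 ± 0.20, adjusted p = 0.123). These ranges overlapped those of the controls. Col6a3 was 9.83, 10.10 and 10.50 (-0.30 ± 0.19), Col4a1 9.23, 9.36 and 9.78 (-0.32 ± 0.18) and Col4a2 8.65, 8.74 and 9.01 (-0.39 ± 0.15). For each of these 6 genes at least 1 week 6 array was as high as the lowest control. Col6a1, at 10.44, 10.46 and 10.62, lay below every control but was not called either (-0.42 ± 0.14, limma's adjusted p = 0.0865). Each call of week 6 stayed in 6 of the 12 fits that left out 1 array. Without control 1, control 3, any 1 of the week 6 arrays or week 29 replicate 2, 0 collagen genes were called, and 5 were called without control 2. Over these fits Col18a1 stayed between -0.61 and -0.35 and Col24a1 between 0.58 and 0.92. With the muscle score, the GAPDH difference or the squamous score as a covariate 0 were called. All of these covariates were separate between week 6 and control arrays. A covariate and the group therefore cannot be told apart well, and the lost calls do not show whether it had a part.

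At week 29, the late stage, 7 collagen genes fell and 2 rose, 9 in all (19.3% of all genes; 10.8% and 8.44% by direction). All 3 arrays lay below all controls for 8 genes and above them for 4, against 20.9% and 22.6% of all genes. Of 11 fibrillar genes 3 fell and 1 rose, basement membrane genes fell in 2 of 8, and other collagens fell in 2 of 21 and rose in 1. The medians were -0.23, -0.36 and -0.14, against 0.01 for all genes. The share that fell was 7 of 40, not far from that of all genes. Beside them 10 of 14 endothelial markers fell (median -0.53) and 5 of 11 smooth muscle markers fell and 1 rose (median -0.86), and their part in the collagen values was not tested.

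Among fibrillar collagens at week 29, Col5a2 was 9.50, 9.83 and 9.18, below every control (-0.70 ± 0.17, adjusted p = 0.0212). Col1a2 was 10.78, 11.19 and 10.50 (-0.84 ± 0.25, adjusted p = 0.0414) and Col3a1 was 11.44, 11.81 and 11.16 (-0.68 ± 0.20, adjusted p = 0.0399). Replicate 2 was the highest week 29 array for all 3 genes, and for Col1a2 and Col3a1 it lay above the lowest control. Col1a1 was 10.43, 10.81 and 10.33 and was not called (-0.30 ± 0.27). Its dimmer second probe set gave -1.18 and was called (adjusted p = 0.0484), so the type I result at week 29 differed between probe sets of 1 gene. Col5a1 was at -0.35 and not called.

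Col6a1 was 10.30, 10.54 and 10.16 at week 29, below every control (-0.59 ± 0.14, adjusted p = 0.0221), while Col6a2 (-0.35) and Col6a3 (-0.56) were not called. In the basement membrane class Col18a1 was 8.39, 8.24 and 8.12 (-0.58 ± 0.13, adjusted p = 0.0168) and Col4a5 was 8.25, 7.88 and 7.90 (-0.92 ± 0.28, adjusted p = 0.0441), both below every control. Col4a1 was 9.14, 9.49 and 9.26 (-0.49 ± 0.18, adjusted p = 0.0846) and Col4a2 was 8.78, 8.97 and 9.11 (-0.24 ± 0.15). Col4a1 lay just below the lowest control and Col4a2 overlapped the controls. Col13a1, a transmembrane collagen, was 4.83, 4.92 and 4.78 in controls and 4.33, 4.51 and 4.50 at week 29 (-0.40 ± 0.12, adjusted p = 0.0405), at dim signal throughout.

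The 2 genes that rose at week 29 were Col24a1, at 7.85, 8.53 and 8.38 (0.87 ± 0.21, adjusted p = 0.0206), and Col22a1, at 7.70, 8.42 and 8.34 (1.07 ± 0.27, or 2.09-fold, adjusted p = 0.0258). Every week 29 array lay above every control for both. Collagen counts at week 29 varied when single arrays were left out. Without control 1, control 3, week 29 replicate 2 or week 29 replicate 3 they were 0, 1, 2 and 0. Without week 6 replicate 1 or 2 they were 5. With the GAPDH difference or the squamous score as a covariate 0 genes were called. With the muscle score 5 were called, among which Col24a1 and Col22a1 were at 0.74 and 0.89 (limma's adjusted p = 0.0257 and 0.0323). All of these covariates were separate between week 29 and control arrays, the muscle score only just. A covariate and the group therefore cannot be told apart well, and the lost calls do not show whether it had a part.

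Differences between NMBA weeks compare those groups directly, and each comparison below shares its week 15 arrays with the other. From week 6 to week 15, 10 collagen genes fell and 5 rose, against 21.2% and 22.7% of all genes (43.9% in all), and 12 were lower and 6 higher without overlap (25.6% and 30.1% of all genes). From week 15 to week 29, 10 rose and 3 fell, against 21.1% and 22.4% (43.6% in all), and 13 were higher and 3 lower without overlap (25.4% and 26.7%). The median log2 change of fibrillar genes was -0.70 from week 6 to week 15 and 0.48 from week 15 to week 29; basement membrane genes had -0.11 and 0.04, and other collagens -0.04 and 0.14. The collagens that fell to week 15 and those that rose after it were near the shares of all genes, and those that moved the other way were fewer. With the muscle score or the squamous score as a covariate 0 collagen genes were called in either comparison, and with the fibroblast score 3 and 4. Each of these scores was separate between week 15 and the other NMBA weeks. A score and the group therefore cannot be told apart well, and the lost calls do not show whether cell content had a part. Without week 29 replicate 2 the count from week 15 to week 29 was 8, and with the GAPDH difference as a covariate 15 genes were called in each, 14 falling and 1 rising to week 15 and all 15 rising after it.

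Among fibrillar genes, the type I, III and V chains other than Col5a3 had changes close in size. From week 6 to week 15 Col1a2 fell by 0.97, Col5a1 by 0.92, Col3a1 by 0.81 and Col5a2 by 0.76 on the log2 scale. Col1a1, at -0.70, was not called (adjusted p = 0.0552), although its groups were separate. From week 15 to week 29 Col1a1 rose by 0.80, Col5a1 by 0.75, Col3a1 by 0.64 and Col5a2 by 0.46, and Col1a2, at 0.58, was not called (adjusted p = 0.0914). Col14a1 was 9.40, 9.51 and 9.90 at week 6 and 9.22, 9.64 and 8.99 at week 29, within or near the control range, against 7.70 to 8.39 at week 15. It fell by 1.51 ± 0.22 from week 6 (adjusted p = 0.000343) and rose by 1.19 ± 0.22 to week 29 (adjusted p = 0.00135). Col15a1 fell by 0.73 and rose by 0.72, and Col6a1 and Col6a3 fell by 0.65 and 0.96 and rose by 0.48 and 0.70.

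**Figure D4:**
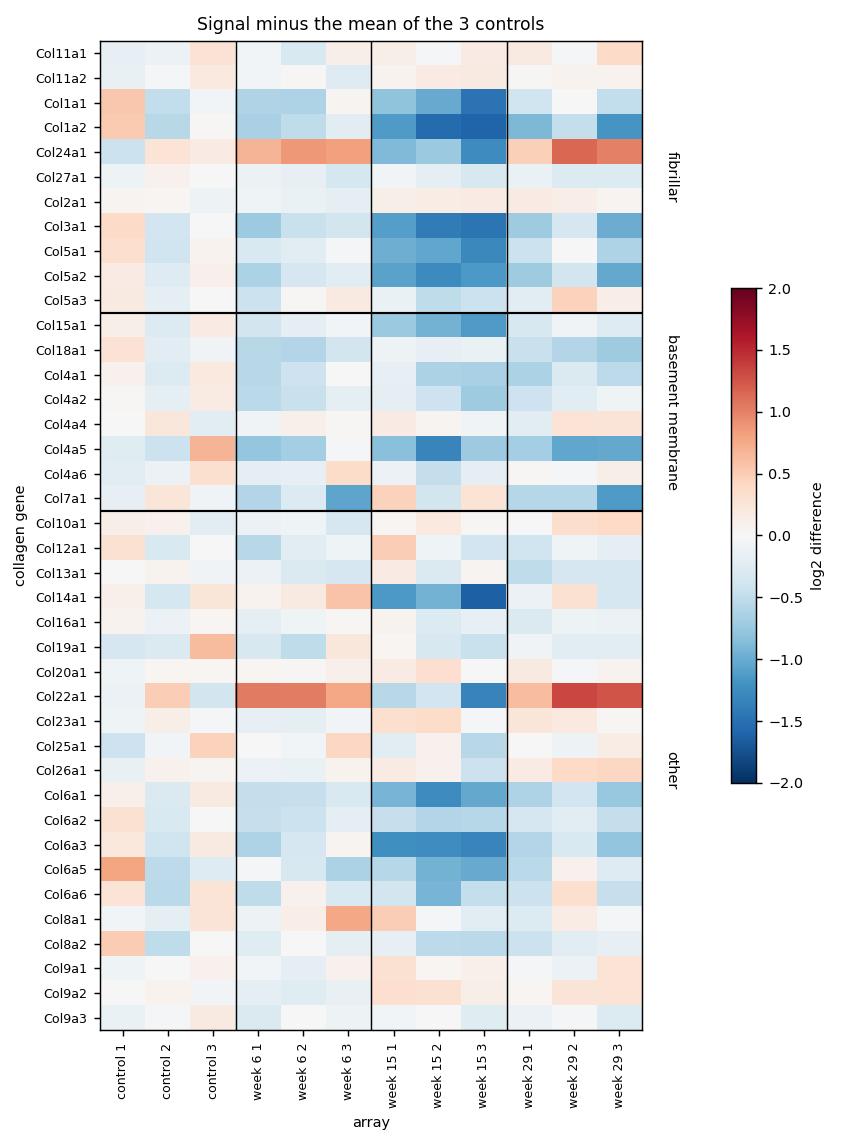
Log2 signal of the 40 collagen genes in each array minus the mean of the 3 controls; blue is lower and red higher, horizontal lines part the classes and vertical lines the groups. The week 15 columns are blue for Col1a1, Col1a2, Col3a1, Col5a1, Col5a2, Col6a1, Col6a3, Col14a1 and Col15a1, while Col22a1 and Col24a1 are red at weeks 6 and 29.

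Col24a1 and Col22a1 had the largest changes between NMBA weeks among the 40 genes. Type XXII collagen is found at junctions of tissues, among them the myotendinous junction. Col22a1 was 6.97, 7.58 and 6.72 in controls, 8.13, 8.12 and 7.86 at week 6, 6.53, 6.70 and 5.76 at week 15 and 7.70, 8.42 and 8.34 at week 29. It fell 3.27-fold from week 6 to week 15 (adjusted p = 0.000526) and rose 3.54-fold to week 29 (adjusted p = 0.000320). Against control its values were 0.95 at week 6 (adjusted p = 0.0522) and -0.76 at week 15 (adjusted p = 0.106), so neither was called. Col24a1 was 6.49, 6.63 and 6.12 at week 15, below every control (-0.96 ± 0.21, adjusted p = 0.0184). It fell 3.37-fold from week 6 to week 15 (adjusted p = 0.000111) and rose 3.58-fold to week 29 (adjusted p = 7.84e-05). For both genes weeks 6 and 29 lay above every control and week 15 below every control, as did the skeletal muscle score. With that score as a covariate Col22a1 was at -0.09 and Col24a1 at -0.46 at week 15, and neither was called. Under it at week 6 they were at 0.64 and 0.55 and were not called. At week 29 they were at 0.89 and 0.74 and both stayed called (adjusted p = 0.0323 and 0.0257 by limma). The part of muscle content in these changes was not tested.

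Col7a1 and Col18a1 had the opposite course between weeks. Col7a1, the anchoring fibril collagen, was 9.04, 9.44 and 9.13 in controls, 8.62, 8.93 and 8.15 at week 6, 9.67, 8.84 and 9.47 at week 15 and 8.63, 8.64 and 8.07 at week 29. It rose by 0.76 ± 0.24 from week 6 to week 15 (adjusted p = 0.0270), with overlapping groups, and fell by 0.88 ± 0.24 to week 29 (adjusted p = 0.0136). Against control it was at -0.64, 0.12 and -0.76 and was called in none of these comparisons. Col18a1, at 8.73, 8.67 and 8.69 at week 15, rose by 0.37 from week 6 and fell by 0.44 to week 29. Both genes had their lowest means at weeks 6 and 29, where 8 and 15 of 20 squamous markers fell against control and 0 rose. In those weeks 3.76% and 10.8% of all genes fell. With the squamous score as a covariate Col18a1 was at -0.24 and -0.21 in the same weeks and was not called. Under the same covariate Col7a1 was at -0.75 and -0.92, further from 0 than without it, and was not called either. The squamous scores of both weeks were separate from those of controls, so score and group cannot be told apart well.

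The remaining calls between weeks were smaller changes. From week 6 to week 15 Col9a2, a fibril-associated collagen of cartilage, went from 6.87, 6.81 and 6.90 to 7.39, 7.36 and 7.17 (0.44 ± 0.09, adjusted p = 0.00316). Col23a1, a transmembrane collagen, rose by 0.36, and Col2a1, the type II chain of cartilage, rose by 0.28 at dim signal, from 4.90, 4.86 and 4.80 to 5.10, 5.14 and 5.16. Col13a1 fell by 0.38 from week 15 to week 29. Between weeks 6 and 29, 0 collagen genes were called by limma (0% of all genes), with 5 of 40 at an unadjusted p under 0.05 (8.2% of all genes), and the 40 values ran from -0.41 to 0.43. Col9a2 (0.38), Col10a1 (0.43), Col2a1 (0.25), Col26a1 (0.39) and Col23a1 (0.30) were higher in all 3 week 29 arrays than in all 3 week 6 arrays (9.33% of all genes were), and 0 were lower in this way (6.42% of all genes were).

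In all, 19 of the 40 members were called in at least 1 of the 6 comparisons, against 52.9% of all genes, and 21 in none. The 21 were the fibrillar genes Col5a3, Col11a1, Col11a2 and Col27a1, the basement membrane genes Col4a1, Col4a2, Col4a4 and Col4a6, and 13 others, among them Col8a1, Col8a2, Col12a1, Col16a1 and the minor type VI chains. Replicates shared an order across many members. Among the 25 members with a mean above 6.44, control 1 was the highest control for 13 and control 2 the lowest for 19. At week 6 replicate 3 was the highest for 19 and replicate 1 the lowest for 18. Week 15 replicate 1 was the highest of its group for 20, and week 29 replicate 2 of its group for 19.

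A second probe set existed for several members, 17 further probe sets of 14 genes. At week 15 those of Col1a1 (-1.54), Col1a2 (-1.41), Col5a1 (-0.79), Col5a2 (-1.25), Col14a1 (-1.25) and Col15a1 (-1.01) were called lower like the brightest ones. That of Col6a3 (-0.31) and that of Col6a2 (-0.18), both much dimmer than the first, were not. The second probe set of Col4a1 was called at week 29 (-0.71, adjusted p = 0.0327), where the brighter was not. Further calls were shared, by limma, for Col18a1 at week 6 (-0.49, adjusted p = 0.0432) and Col5a2 at week 29 (-0.60, adjusted p = 0.0325). The second sets of Col5a2, Col14a1 and Col15a1 were called from week 6 to week 15 and from week 15 to week 29. Those of Col1a2, Col6a3 and Col18a1 were called from week 6 to week 15. Some other calls were not shared by the second probe set. At week 29 that of Col18a1 was at -0.35 (adjusted p = 0.0887) and that of Col1a2 at -0.84 (adjusted p = 0.0726). From week 6 to week 15 that of Col5a1 was at -0.48 (adjusted p = 0.0625) and neither further set of Col2a1 was called. From week 15 to week 29 the second sets of Col1a1 (0.36), Col5a1 (0.26), Col6a3 (0.45) and Col18a1 (-0.34) were not called.

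Collagen chains are hydroxylated and folded in the endoplasmic reticulum by prolyl and lysyl hydroxylases and chaperones and are cross-linked outside the cell by lysyl oxidases. At week 15, 8.38% of all genes fell and 1.54% rose. Of 25 measured genes of this processing list (32 listed), 7 fell and 0 rose at week 15, with a median of -0.37. The 6 with the lowest adjusted p were the lysyl hydroxylase Plod2 (-1.11 ± 0.13, adjusted p = 0.00228), the collagen-binding protein Sparc (-0.92), the lysyl oxidase Loxl2 (-0.91), the prolyl hydroxylase subunits P4ha1 (-0.55) and P4ha2 (-0.36), and the collagen galactosyltransferase Colgalt2 (-0.45). At week 6, 2 rose, Tmem38b (0.74) and Colgalt2 (0.45), and 0 fell, against 5.07% and 3.76% of all genes. At week 29, 4 fell and 1 rose, against 10.8% and 8.44% of all genes. Sparc was at -0.87, Loxl2 at -0.78, the procollagen protease Bmp1 at -0.48, P4hb at -0.47 and Tmem38b at 0.66. From week 6 to week 15, 10 fell and 2 rose, against 21.2% and 22.7% of all genes. Plod2, Tmem38b and Colgalt2 fell by 1.38, 1.23 and 0.90. The prolyl hydroxylase subunit and isomerase P4hb (0.72) and the prolyl isomerase Ppib (0.61) rose. Ppib was named after its values were seen, as the second of the 2 that rose.

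Of 5 measured collagen receptors (10 listed), 2 fell at week 15, where 8.38% of all genes fell. They were Itga11, the integrin chain that binds fibrillar collagen (-1.06 ± 0.12, limma's adjusted p = 0.00221), and the fibrillar collagen receptor kinase Ddr2 (-1.10). At week 6 Itga11 rose (0.50), and at week 29 it rose (0.47) while Itga1, a receptor that prefers type IV, fell (-1.19 ± 0.23, adjusted p = 0.0122). Of all genes 8.38% fell and 1.54% rose at week 15. Among 11 partners of collagen in the basement membrane, 7 fell and 0 rose at week 15 (median -0.55), although Col4a1 and Col4a2 were not called. They included Lama2, the laminin chain of muscle basement membrane (-1.45 ± 0.16, adjusted p = 0.00221), the nidogens Nid1 (-1.22) and Nid2 (-1.05), Lamc1 (-0.73), Lamb2 (-0.55) and Lama4 (-0.87). At week 6 Agrn (-0.80) and the epithelial laminin chain Lama5 (-0.50) fell, and the same 2 genes fell at week 29 (-0.70 and -0.55). In these weeks 3.76% and 10.8% of all genes fell.

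Of 13 measured genes of TGF-beta signaling and other inducers of collagen (16 listed), 5 fell and 0 rose at week 15, against 8.38% and 1.54% of all genes. They were the signal transducer Smad3 (-0.72), the growth factor receptor Pdgfra (-1.16), the ligands Tgfb2 (-0.71) and Tgfb3 (-0.94), and Pdgfa (-0.43). Pdgfra is also on the fibroblast list. None was called at week 6 (8.83% of all genes were), where the median was -0.03. At week 29 the inhibitory Smad7 (-0.40) and the matricellular Ccn2 (-0.86) fell and Smad3 rose (0.58), where 10.8% of all genes fell and 8.44% rose. The part of muscle, fibroblast and epithelial content in these list changes was not tested.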

How the data were processed

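RNA from 12 rat esophageal samples was measured on 1 Affymetrix array each. The authors deposited log2 signals per probe set, and the submitters' processing notes name Affymetrix Expression Console. Its version, background correction and summarization are not stated there, and the centring of the log2 scale stays unknown. Array medians lay between 6.42 and 6.49 and no further normalization was applied. After 57 array control probe sets were left out, 31042 of 31099 were tested. Of these 20826 had 1 gene symbol in the platform annotation, 436 had several and 9780 were not listed or had no symbol; 20758 of the symbols were found in the RefSeq table and 0 changed. The brightest probe set over all arrays stood for each of 14217 genes.

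A linear model with the 4 groups as factors was fitted to all 12 arrays with limma 3.58.1 in R 4.3.3 (8 residual degrees of freedom), giving 6 comparisons. P-values were adjusted by Benjamini-Hochberg over all probe sets within a comparison, and a gene was called at an adjusted p under 0.05. Arrays correlated at 0.985 to 0.997 within groups, with 7 to 47 identical values per pair of arrays. The procedure was tested on simulated data.

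All 40 collagens were described, with no filter on dim signal. Of genes on the other lists, up to 6 called genes per list and comparison were named, lowest adjusted p first; Lum, Mfap4 and Dcn were named likewise. Of 217 listed genes 25 were not found on the array. The members and lists were chosen with earlier results of these data known. Alternatives were other scalings, filters and probe set rules, covariates, the replicate block, the 6 arrays of 2 groups alone, and each array left out.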

Additional observations from a re-analysis of the deposited data

Results flagged for a closer look

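Signal differed between NMBA weeks for 15 collagen genes from week 6 to week 15 and for 13 from week 15 to week 29. The test was limma's at an adjusted p under 0.05, by which 43.9% and 43.6% of all genes differed. These are the comparisons between weeks described above. The control mean cancels in them, so an effect of NMBA cannot be told apart from time or tissue content. Values are log2 differences between the weeks, n = 3 per group. Lower at week 15 than at week 6 were Col24a1 (-1.75), Col22a1 (-1.71), Col14a1 (-1.51), Col1a2 (-0.97), Col6a3 (-0.96), Col5a1 (-0.92), Col3a1 (-0.81), Col5a2 (-0.76), Col15a1 (-0.73) and Col6a1 (-0.65). Higher at week 15 were Col7a1 (0.76), Col9a2 (0.44), Col18a1 (0.37), Col23a1 (0.36) and Col2a1 (0.28). Higher at week 29 than at week 15 were Col24a1 (1.84), Col22a1 (1.82), Col14a1 (1.19), Col1a1 (0.80), Col5a1 (0.75), Col15a1 (0.72), Col6a3 (0.70), Col3a1 (0.64), Col6a1 (0.48) and Col5a2 (0.46). Lower at week 29 were Col7a1 (-0.88), Col18a1 (-0.44) and Col13a1 (-0.38). All of these were separate between the groups except Col7a1 from week 6 to week 15. The muscle, fibroblast and squamous scores moved between the same weeks.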

How the results depend on the processing

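Counts of collagen genes called were 2, 11 and 9 at weeks 6, 15 and 29 against control, 15 from week 6 to week 15, 13 from week 15 to week 29 and 0 from week 6 to week 29. With the skeletal muscle score as a covariate they were 0, 0, 5, 0, 0 and 0. With the GAPDH difference as a covariate 0 were called at weeks 6 and 29. With the squamous score, added after the data were seen, they were 0, 4, 0, 0, 0 and 0, and Col18a1 turned to -0.03 from week 6 to week 15 and 0.06 from week 15 to week 29. With the fibroblast score, also added then, 0 were called at week 15 against control, 3 from week 6 to week 15 and 4 from week 15 to week 29. Under it Col1a1 turned to 0.05 at week 15 against control and to -0.20 from week 15 to week 29, and Col3a1 to -0.01 in the latter. Fitting the 6 arrays alone gave 4 at week 15. Leaving out each of the 12 arrays gave 0 to 5, 8 to 12 and 0 to 11 against control, 12 to 16 and 8 to 14 between weeks, and 0 from week 6 to week 29. With the replicate block the counts were 3, 12, 6, 15, 12 and 0. After group means were subtracted, same-numbered arrays correlated at -0.41 to 0.29, with 8 of 18 pairs above 0.1. Of 12 arrays, 3 matched their own number best. With 3 arrays per group these values cannot decide whether the numbers mark a pairing or a batch. Of 1146 gene values under alternatives, 858 kept direction and call, 283 lost the call and 5 reversed. Of 414 class medians 49 moved beyond the replicate spread. Where collagen counts fell with a score or the GAPDH difference, that covariate was separate between the groups compared, except the squamous score at week 15 against control. Such a covariate and the group cannot be told apart well. Apart from the covariates' own construction, the cause of these changes was not tested. Groups of 3 arrays and dim signal limit what could be detected.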
